A study of Mus musculus with 19 samples.

Results

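The 73 genes described here are small nucleolar RNA (snoRNA) genes, measured on Affymetrix mouse arrays among 22180 genes with a usable probe set. A gene was included when its symbol began with Snora or Snord followed by a number, and it was represented by its brightest probe set over the 19 arrays. Of the 73, 47 were C/D box genes (Snord) and 26 were H/ACA box genes (Snora). No gene of the repeated Snord113 and Snord114 clusters had a probe set with a single symbol, and 43 probe sets that listed a snoRNA among several symbols were left out. All values are log2 intensities, so a difference of 1 is a 2-fold change in signal.

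The tumors were angiosarcomas, malignant tumors of vessel-lining cells, from 7 samples of genotype aP2-Cre/+;DicerFlox/-. In this model the aP2 (Fabp4) promoter, best known for activity in adipocytes, drives Cre in aP2-expressing cells. The genotype has 1 floxed and 1 null allele of Dicer, the enzyme that cuts microRNA precursors, and these alleles are not limited to those cells. The normal tissues were wild type: 4 samples of aorta, 4 of quadriceps femoris and 4 of sternocleidomastoid, the latter being a neck muscle. Both genotypes had a mixed C57Bl/6 and 129X1/SvJ background. Tissue and genotype therefore changed together in every tumor comparison and cannot be told apart. The labels give no age, sex, batch or animal for any sample, so the p-values measure only the spread between these samples, which may in part be technical. "Muscle" below means the average of the quadriceps and sternocleidomastoid group means.

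SnoRNAs are short noncoding RNAs of the nucleolus that work inside protein complexes. C/D box snoRNAs mainly guide ribose methylation of ribosomal RNA (rRNA), with fibrillarin as the enzyme, and H/ACA box snoRNAs mainly guide conversion of uridine to pseudouridine, with dyskerin as the enzyme. A few, among them U3, U8 and U17, instead take part in cutting and folding the rRNA precursor. Most mammalian snoRNAs are trimmed out of the spliced introns of host genes, many of which code for ribosomal proteins or nucleolar factors or are noncoding RNAs of the Snhg (small nucleolar RNA host gene) group.

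All 73 genes were found in the RefSeq gene table, where their lengths ran from 48 to 221 nucleotides. By position 70 lay inside another gene, 52 in a protein-coding gene and 18 in a long noncoding RNA gene, over 56 host genes. Snord13, Snord89 and Snord118 lay in none. The table used gave no strand for the snoRNAs, so a host is a gene whose span contains the snoRNA on either strand, and 6 snoRNAs lay inside more than 1 gene.

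Because an intronic snoRNA is made from its host's transcript, the sequence around the host's start is the promoter sequence that bears on it. The 30 bases around the RefSeq start (build GRCm38.p6, 15 bases on each side, read 5′ to 3′ on the host's strand) were searched for CTTTC. These letters were used since many ribosomal protein and snoRNA host transcripts are known to begin with a run of pyrimidines. A match anywhere in the window counted, so it does not show that a transcript begins there. The match began at -4 from the RefSeq start in 2410006H16Rik, -1 in Snhg12 and 10 in Rpl13a. Windows with a match, in capitals, are shown for the hosts of snoRNAs described below.
2410006H16Rik, host of Snord49a, Snord49b and Snord65, chr11:62602862-62602891 (+): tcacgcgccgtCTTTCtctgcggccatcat
Snhg12, host of Snora16a, Snora44, Snora61 and Snord99, chr4:132308663-132308692 (+): ggccgttctcagtcCTTTCtcgcttcatcc
Rpl13a, host of Snord35a, chr7:45128731-45128760 (-): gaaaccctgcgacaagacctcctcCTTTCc

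Searched on the host's strand only, CTTTC was present in this window in 7 of 45 host genes with a promoter in the RefSeq table (15.6%) and in 1286 of all 27025 genes there (4.76%). These letters were chosen after some host promoters had been read. A second motif, CACGTG, the letters bound by Myc with its partner Max and by related factors, reads the same on both strands and was searched in the 300 bases from 250 before to 50 after the start. It was present in 10 of the 45 host genes (22.2%) and in 2187 of the 27025 genes (8.09%). Among the hosts of snoRNAs described below it lay in the windows of Snx5, Rpl13a and Wdr43.
Snx5, host of Snord17, chr2:144270605-144270634 (-): gcactgggggagCACGTGgcgtgccgctcg
Rpl13a, host of Snord35a, chr7:45128928-45128957 (-): cgctccgaaaccCACGTGacatcccgcccc
Wdr43, host of Snord53 and Snord92, chr17:71616220-71616249 (+): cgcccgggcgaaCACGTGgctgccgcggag
A match describes the letters in the window and is not evidence of binding there.

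Array medians over all genes ran from 5.83 to 5.94. Dicer1 ran from 8.17 to 8.80 in the tumors and from 8.02 to 8.40 in the aortas, but the labels do not say which exon is floxed, so this does not check the deletion. All 6 endothelial markers were higher in tumors than in aorta (median difference 1.81) and than in muscle (2.43), and so were all 3 cycling-cell markers (3.22 and 3.75), under housekeeping centring too. The aortas carried signal of other tissues, with mean levels of 10.1 to 10.98 for 3 heart muscle markers and 11.21 to 11.94 for 3 brown adipocyte markers, against 4.76 to 5.04 and 4.21 to 8.70 in tumors. The brown adipocyte mean also ran from 8.03 to 9.97 in sternocleidomastoid and from 4.70 to 7.57 in quadriceps. The mean of 5 skeletal muscle markers ran from 5.66 to 7.96 in the aortas. Brown adipocyte markers in the tumors were highest in tumors 4 and 5 (8.70 and 8.62), and the mean of 5 skeletal muscle markers ran from 5.36 to 10.96 among the tumors. In such bulk samples, fewer cells of a type and less RNA per cell cannot be told apart, and the part of these other cells in the snoRNA differences was not tested beyond leaving out tumors, as given below.

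Most snoRNA genes gave more signal in the tumors than in the normal tissues on the deposited scale. In tumor minus aorta, 35 of 73 rose (limma, Benjamini-Hochberg adjusted p under 0.05 over all genes) and 2 fell, where 18.6% of all genes rose and 17.5% fell. The median difference of the 73 was 0.44, beside -0.02 for all genes, and 63 lay above the all-gene median. In tumor minus muscle, 54 rose and 3 fell, where 25.3% and 25.7% of all genes did, with a median difference of 0.58 beside -0.04. When each array was instead centred on 5 housekeeping genes (Tbp, Hprt, Ywhaz, Polr2a and Gusb), the direction of the family turned: 5 rose and 26 fell against aorta, where 5.22% of all genes rose and 77.9% fell, and 6 rose and 39 fell against muscle, where 6.19% rose and 85% fell. That centring moved the median of all genes to -0.65 and -1.01. The snoRNA median was still 0.46 and 0.62 above it, which is no test, since centring shifts all genes of an array alike. Of the scalings compared, only quantile normalization could change this gap, and it gave 0.42 against aorta and 0.64 against muscle.

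**Figure D1:**
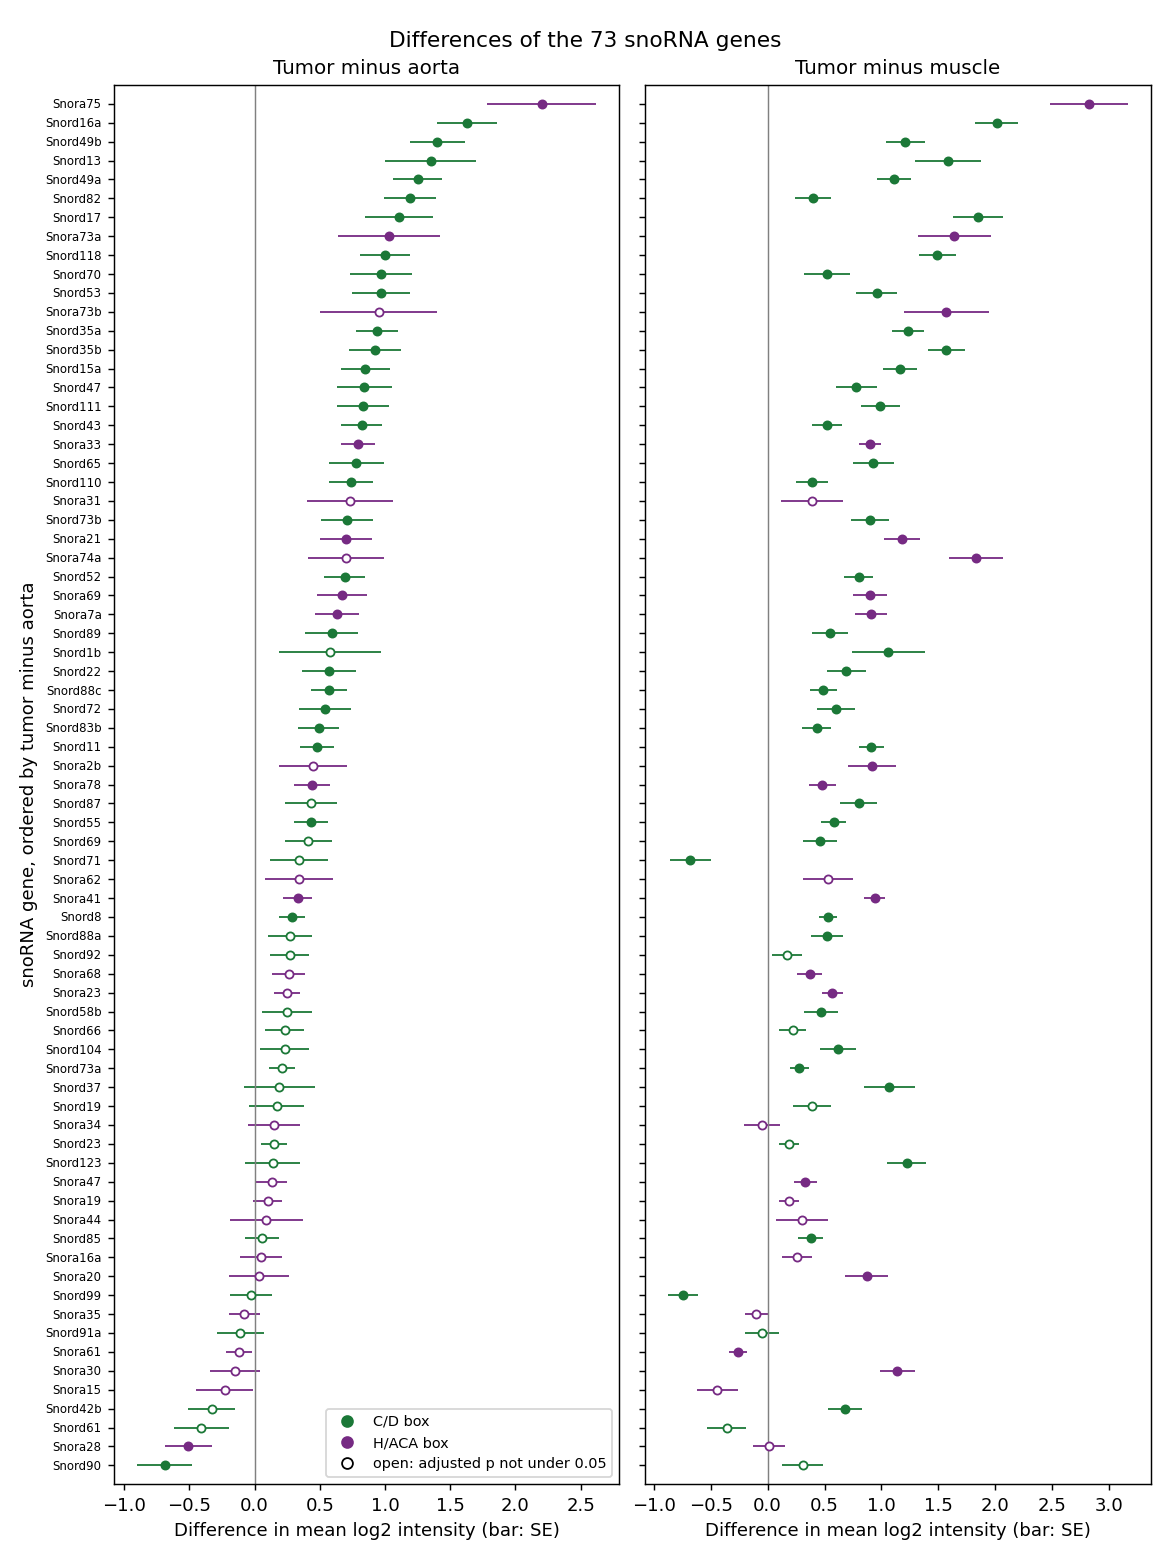
Difference in mean log2 intensity (x axis, bar 1 SE) of each of the 73 snoRNA genes for tumor minus aorta (left) and tumor minus muscle (right), ordered by the left panel, with filled points for adjusted p under 0.05. Most points lie right of 0 on the deposited scale in both panels, up to 2.20 and 2.82 for Snora75, whereas centring on housekeeping genes moved the family medians to -0.18 and -0.39.

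C/D box genes passed more often than H/ACA box genes against aorta, with 27 of 47 higher and 1 lower beside 8 of 26 higher and 1 lower, and the difference between the classes was not tested. Their median differences were 0.54 and 0.29. Against muscle 38 C/D box genes rose and 2 fell, and 16 H/ACA box genes rose and 1 fell, with medians of 0.60 and 0.55. All 7 tumors lay above all 4 aortas for 13 of the 73 genes (12.2% of all genes did so), 12 of them C/D box, and none of the 73 had all tumors below (11.5% of all genes). All 7 tumors lay above all 8 muscles for 27 (14.6% of all genes) and below for 1 (12.7%). A weak signal limited some genes: 19 of the 73 were below the median gene of the arrays in every group, and 5 of these rose and 1 fell against aorta.

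The largest rise was that of Snora75 (U23), an H/ACA box snoRNA in an intron of nucleolin (Ncl). Its tumor values ran from 8.94 to 11.65 with a median of 10.33, and the aortas were at 9.0, 8.59, 7.01 and 8.30. The quadriceps samples were at 7.49, 7.42, 7.28 and 7.79, and the sternocleidomastoid samples at 7.64, 7.69, 7.46 and 8.01. Only tumor 5, the lowest, fell below the highest aorta, and all 7 tumors exceeded every muscle. The difference was 2.20 ± 0.42 (SE) against aorta, a 4.58-fold change (limma adjusted p = 0.000329), and 2.82 ± 0.34 against muscle, a 7.08-fold change (limma adjusted p = 8.83e-07). Aorta 3 was well below the other aortas for this gene.

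Snord82 (U20), a C/D box snoRNA of the same host, followed another pattern. Its tumor values ran from 10.15 to 11.31 (median 10.57), the aortas were at 9.72, 9.58, 8.70 and 9.51, and the 8 muscles ran from 9.99 to 10.29. The tumors thus cleared all aortas but overlapped the muscles, and the aortas lay below every muscle. Snord82 rose by 1.19 ± 0.20 against aorta (limma adjusted p = 8.32e-05). It rose by 0.40 ± 0.16 against muscle (limma adjusted p = 0.0456), a difference that became -0.57 under housekeeping centring. In tumor minus muscle the change of Snora75 exceeded that of Snord82 by 2.42 (exact permutation test of the difference over the 7 tumors and 8 muscles, two-sided, adjusted p = 0.00186 over 36 such tests). Against aorta it did so by 1.01, which did not pass (exact permutation adjusted p = 0.134). Ncl itself, which codes for a major nucleolar protein, differed by 0.83 from aorta (limma adjusted p = 0.00175) and 0.40 from muscle (limma adjusted p = 0.0378). Under housekeeping centring these were 0.21 (limma adjusted p = 0.297) and -0.57.

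Snord16a (U16), a C/D box snoRNA in the ribosomal protein gene Rpl4, separated the tumors from all other tissues. The tumors ran from 7.44 to 8.71 (median 8.04), and the aortas were at 6.34, 6.72, 5.90 and 6.76. The quadriceps samples were at 6.03, 6.23, 6.34 and 6.34, and the sternocleidomastoid samples at 5.23, 6.35, 5.72 and 6.11. No tumor overlapped any normal sample. The rise was 1.63 ± 0.23 against aorta, or 3.09-fold (limma adjusted p = 1.73e-05), and 2.01 ± 0.19 against muscle, or 4.04-fold (limma adjusted p = 3.31e-08).

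Snord49a and Snord49b, C/D box relatives that share the noncoding host 2410006H16Rik (its start is shown above), rose side by side. Snord49b ran from 9.89 to 10.87 in tumors (median 10.64) and was at 9.39, 9.06, 8.62 and 8.95 in the aortas. Snord49a ran from 6.21 to 7.35 (median 6.59) and was at 5.58, 5.74, 5.14 and 5.56. Neither overlapped between tumor and aorta. The rises against aorta were 1.40 ± 0.21 and 1.25 ± 0.19 (limma adjusted p = 2.74e-05 and 2.84e-05), and those against muscle were 1.21 and 1.11 (limma adjusted p = 6.96e-06 and 4.5e-06). Those against muscle were lost under housekeeping centring (0.24 and 0.14, limma adjusted p = 0.215 and 0.358). Snord65, the remaining measured snoRNA of this host, differed by 0.78 from aorta, and the host by 0.94 (limma adjusted p = 0.000671), or 0.31 under housekeeping centring (limma adjusted p = 0.139). Probes for such similar sequences may share signal.

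Among the snoRNAs that process rather than modify the rRNA precursor, Snord118 is a measured member. Snord118 (U8), needed for maturation of the large-subunit rRNAs, ran from 5.73 to 7.18 in tumors (median 6.16) and was at 5.38, 5.45, 4.94 and 5.03 in the aortas. No tumor overlapped a normal sample, although the signal in the normal tissues was under the median gene. The rise was 1.0 ± 0.19 against aorta (limma adjusted p = 0.000401) and 1.49 ± 0.16 against muscle (limma adjusted p = 1.57e-07). Under housekeeping centring the call against aorta was lost (0.37, limma adjusted p = 0.0911). Snord13 (U13), which acts on the small-subunit rRNA, ran from 6.01 to 8.21 in tumors (median 6.71) and was at 5.32, 6.00, 5.13 and 5.90 in the aortas. The groups did not overlap, although the lowest tumor was only just above the highest aorta. Its rise was 1.35 ± 0.35 against aorta (limma adjusted p = 0.00438) and 1.58 against muscle (limma adjusted p = 0.000103). Both calls were lost under housekeeping centring (0.72 and 0.61, limma adjusted p = 0.0616 and 0.0529). U3 itself, the most abundant processing snoRNA, is measured as Rnu3a and lies outside the symbol rule. It ran from 6.79 to 10.34 in tumors (median 7.77), was at 6.17, 6.25, 4.48 and 5.84 in the aortas, and differed by 2.73 ± 0.54 from aorta (limma adjusted p = 0.000472) and 3.39 from muscle (limma adjusted p = 2.27e-06).

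Snora73a and Snora73b (U17, also called E1) are near-identical copies in the noncoding host Snhg3 and also belong to the processing class. Snora73a ran from 7.04 to 9.71 in tumors (median 7.74) and was at 7.10, 7.28, 6.71 and 6.96 in the aortas. Snora73b ran from 7.47 to 10.71 (median 8.41) and was at 7.80, 8.03, 7.39 and 7.79. For both genes tumors 2 and 7 were far above the other tumors, and tumors 4 and 5 lay within the aortas' range. The rise of Snora73a against aorta, 1.03 ± 0.39, only just passed (limma adjusted p = 0.0484) and of the fits that left out 1 array it kept its call only in those without tumor 4, 5 or 6 or sternocleidomastoid 4. It was 0.92 without aorta 3 (limma adjusted p = 0.127) and 0.75 without tumor 2 (limma adjusted p = 0.0673). That of Snora73b, 0.95 ± 0.45, did not pass (limma adjusted p = 0.115). Against muscle both passed, at 1.64 (limma adjusted p = 0.000265) and 1.57 (limma adjusted p = 0.00146). Under housekeeping centring neither copy passed in either comparison, with 0.40 and 0.32 against aorta (limma adjusted p = 0.342 and 0.505) and 0.67 and 0.60 against muscle (limma adjusted p = 0.0573 and 0.13). Across the 7 tumors the copies had r = 0.996 (exact permutation, p = 0.000794, adjusted p = 0.00317 over 4 relations, n = 7) and rho = 0.93 (exact permutation p = 0.00675), and r was 0.97 without tumors 2 and 7. Probes shared between the copies would give such values too, which was not tested. Snora73b against its host Snhg3 gave r = 0.52 and rho = 0.64 (exact permutation adjusted p = 0.236 and 0.167, n = 7), with r = 0.47 without tumors 2 and 7.

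**Figure D2:**
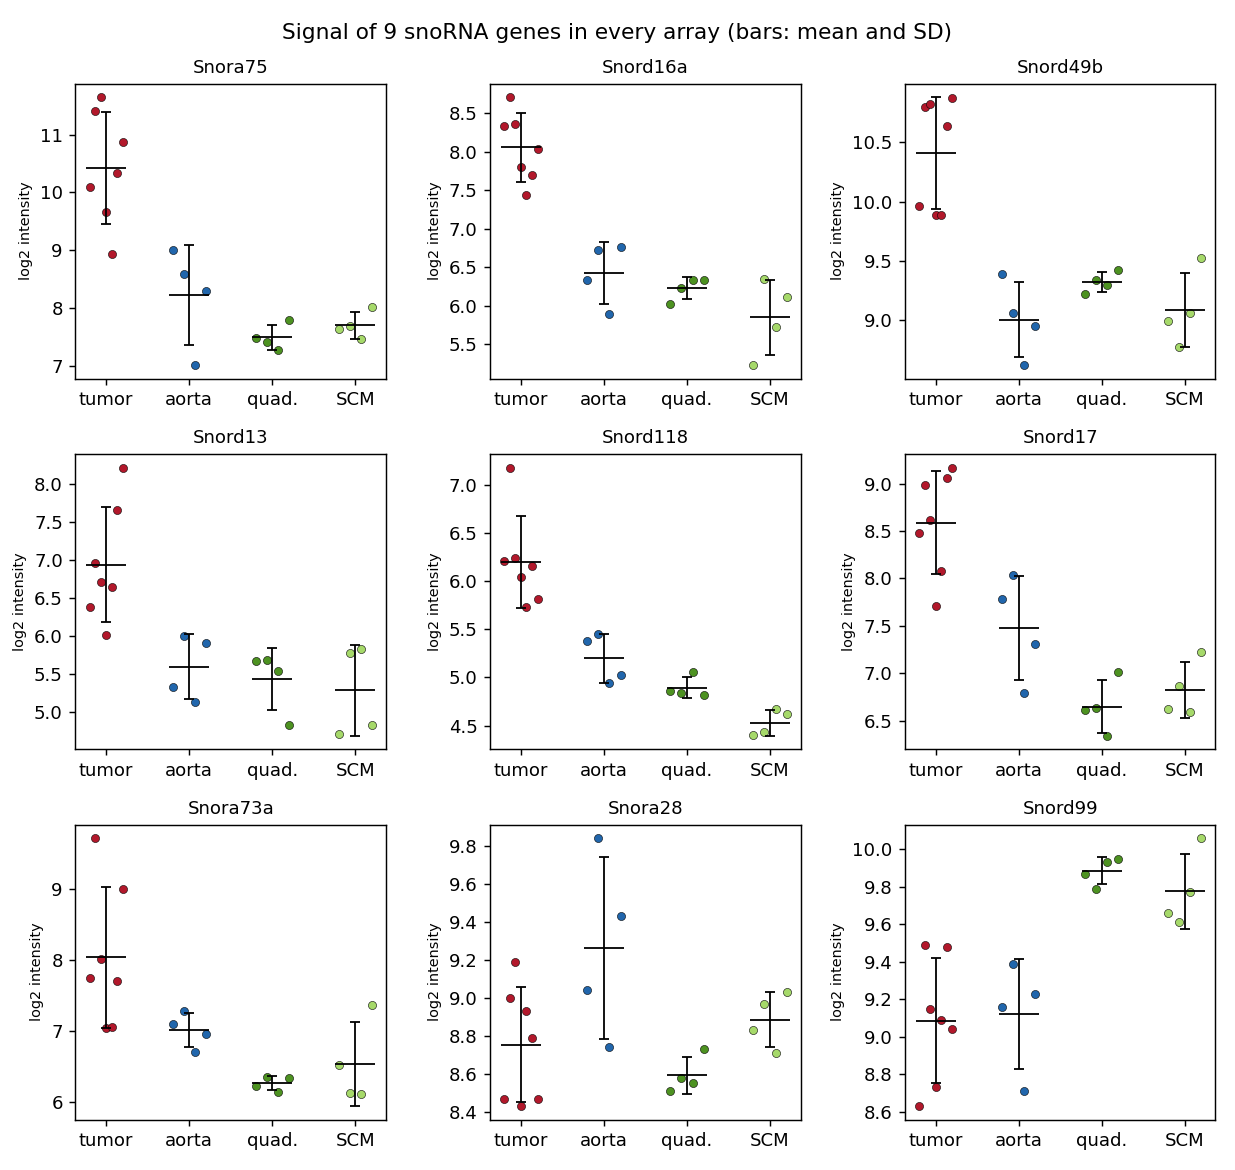
Log2 intensity (y axis) of 9 snoRNA genes in each of the 7 tumors, 4 aortas, 4 quadriceps femoris (quad.) and 4 sternocleidomastoid (SCM) arrays, with a bar for the mean and 1 SD. Tumor points lie clear of all others for Snord16a, Snord49b, Snord13 and Snord118, spread widely for Snora75 and Snora73a, and lie below every muscle point for Snord99.

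Other C/D box snoRNAs also rose in both tumor comparisons on the deposited scale. Snord17, a long C/D box snoRNA whose host Snx5 carries a CACGTG shown above, ran from 7.71 to 9.17 in tumors (median 8.62) and was at 7.78, 8.04, 6.79 and 7.31 in the aortas. All but tumor 4 exceeded the highest aorta. It rose by 1.11 ± 0.26 against aorta (limma adjusted p = 0.00242) and 1.85 ± 0.22 against muscle (limma adjusted p = 5.36e-07), the first value becoming 0.48 under housekeeping centring (limma adjusted p = 0.0843). Snord35a, in Rpl13a, ran from 8.47 to 9.55 (median 9.02) beside 8.20, 8.34, 7.77 and 7.94 in the aortas, and its relative Snord35b from 7.98 to 8.89 (median 8.65) beside 7.75, 7.82, 7.23 and 7.59. Both were without overlap. Their rises were 0.94 and 0.92 against aorta (limma adjusted p = 0.000134 and 0.00104) and 1.23 and 1.57 against muscle (limma adjusted p = 2.22e-07 and 1.08e-07). Under housekeeping centring both aorta calls were lost (0.32 and 0.30, limma adjusted p = 0.0652 and 0.167), and so was that of Snord35a against muscle (0.26, limma adjusted p = 0.0642).

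Snord53, in the ribosome biogenesis gene Wdr43, ran from 7.34 to 9.01 in tumors (median 8.34) beside 7.24, 7.79, 6.96 and 7.41 in the aortas, with tumor 5 inside the aortas' range. It rose by 0.97 ± 0.22 against aorta (limma adjusted p = 0.00162) and 0.96 against muscle (limma adjusted p = 0.00017), on the deposited scale. Under housekeeping centring these were 0.35 (limma adjusted p = 0.129) and -0.01, and with tumors 5 to 7 only the aorta call was lost too (0.54, limma adjusted p = 0.0543). Snora74a (U19), an H/ACA box snoRNA in Snhg4, had aortas that overlapped both the tumors and the muscles. It ran from 7.5 to 8.83 in tumors (median 7.93), was at 7.69, 8.04, 6.57 and 7.28 in the aortas, and ran from 5.82 to 6.72 in the muscles. Its difference of 0.70 from aorta did not pass (limma adjusted p = 0.0709), while it rose by 1.83 against muscle (limma adjusted p = 2.36e-06). Under housekeeping centring these were 0.08 (limma adjusted p = 0.807) and 0.86 (limma adjusted p = 0.00175).

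On the deposited scale the genes that fell did so by less. Under housekeeping centring 26 of the 73 fell against aorta, where 77.9% of all genes did. Snord90 and Snora28 were then at -1.31 and -1.13 (limma adjusted p = 7.52e-06 and 5.8e-06). Snord90, in Rc3h2, was a weak signal in every group, at 3.66 to 4.52 in tumors (median 4.11) and 4.84, 4.93, 4.43 and 5.01 in the aortas. It fell by 0.69 on the log2 scale (SE 0.21, limma adjusted p = 0.0152), and without aorta 4 the call was lost (-0.62, limma adjusted p = 0.055). Snora28, an H/ACA box snoRNA in Eif5, ran from 8.43 to 9.19 in tumors (median 8.79) and was at 9.04, 9.84, 8.74 and 9.43 in the aortas. The groups overlapped. It fell by 0.51 (SE 0.18, limma adjusted p = 0.0288), a call lost when any of aortas 2 or 4 or tumors 1, 4 or 7 was left out (from -0.32 without aorta 2 to -0.46 without tumor 1 or 7). With tumors 5 to 7 only, neither Snord90 nor Snora28 passed (-0.57 and -0.53, limma adjusted p = 0.14 and 0.0559).

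Against muscle the 3 genes that fell on the deposited scale were Snord99, Snord71 and Snora61. Under housekeeping centring 39 of the 73 fell, where 85% of all genes did. These 3 were then at -1.71, -1.65 and -1.23 (limma adjusted p = 6.1e-10, 7.76e-08 and 1.13e-09). Snord99, in Snhg12, ran from 8.63 to 9.49 in tumors (median 9.09) and from 9.61 to 10.06 in the 8 muscles, so that all 7 tumors were below all muscles. It fell by 0.74 (SE 0.13, limma adjusted p = 7.93e-05), and the aortas, at 9.16, 9.39, 8.71 and 9.23, were also below the muscles. Snord71, in Ap1g1, ran from 8.02 to 9.13 in tumors (median 8.29) and from 8.87 to 9.87 in the muscles, and fell by 0.68 (limma adjusted p = 0.00354). Snora61, in Snhg12, fell by 0.26 (limma adjusted p = 0.0102), with overlapping groups. The calls of Snord71 and Snora61 were lost with tumors 5 to 7 only (-0.47 and -0.25, limma adjusted p = 0.0986 and 0.079).

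Aorta and muscle, both wild type, differed at fewer snoRNA genes. In aorta minus muscle 13 of 73 were higher and 3 lower, where 17% and 15.3% of all genes were, with a median of 0.19 beside 0.01. All aortas lay above all muscles for 5 of the 73 (14.6% of all genes) and below for 3 (12.6%). Under housekeeping centring this split turned to 6 higher and 17 lower, where 7.86% of all genes were higher and 52% lower. The count higher was 7 without aorta 2 and 19 without aorta 3. Among the largest were Snora30, in the chromatin remodeller gene Srcap, at 9.0, 9.33, 8.17 and 8.76 in the aortas and 7.22 to 7.91 in the muscles, and Snord123, in Snhg18, at 6.99, 7.27, 6.72 and 6.56 beside 5.46 to 5.96. Neither overlapped. They were higher in aorta by 1.29 (limma adjusted p = 1.6e-05) and 1.09 (limma adjusted p = 0.000302). Snora74a, Snord42b (in Rpl23a) and Snord90 were higher by 1.13, 1.01 and 1.0 (limma adjusted p = 0.0042, 0.000138 and 0.000863). The 3 lower in aorta were Snord71 (-1.01), Snord82 (-0.78) and Snord99 (-0.71), with limma adjusted p = 0.00089, 0.00346 and 0.00135.

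Between the muscles, sternocleidomastoid minus quadriceps femoris, no snoRNA gene passed in limma in either direction, where 0.234% of all genes were higher and 0.198% lower. All sternocleidomastoid samples lay above all quadriceps samples for 2 of the 73 (4% of all genes) and below for 3 (3.6%). At an unadjusted p under 0.05 there were 2 snoRNA genes, or 2.74%, beside 7.06% of all genes. The largest differences were Snord53 at -0.50 ± 0.25 (limma adjusted p = 0.733) and Snord88c at 0.46 ± 0.16 (limma adjusted p = 0.426). The Snord53 samples did not overlap, at 7.49, 7.68, 7.68 and 7.61 in quadriceps and 7.06, 7.05, 7.08 and 7.26 in sternocleidomastoid, and limma on these 8 arrays alone called it lower (adjusted p = 0.0284).

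The tumors differed among themselves more at snoRNA genes than at the typical gene. The median SD over the 7 tumors was 0.38 for the 73 genes and 0.21 for all genes, beside 0.27 and 0.16 among aortas, 0.14 and 0.14 among quadriceps and 0.24 and 0.16 among sternocleidomastoid samples. Tumors 2 and 3 were the high ones, with the highest value for 22 and 27 of the 73 genes. Tumors 4 and 5 were the low ones, with the lowest value for 20 and 32. Their mean deviations from the tumor mean were 0.31 and 0.27 and -0.28 and -0.33, while those of the other 3 tumors were between -0.02 and 0.04. Tumors 4 and 5 were also the tumors with the high brown adipocyte markers, and the part of those cells was not tested. With tumors 4 and 5 left out, 44 genes rose against aorta and 58 against muscle. With tumors 1, 2, 4 and 7, those with the most skeletal muscle marker signal, left out, 28 and 49 rose.

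**Figure D3:**
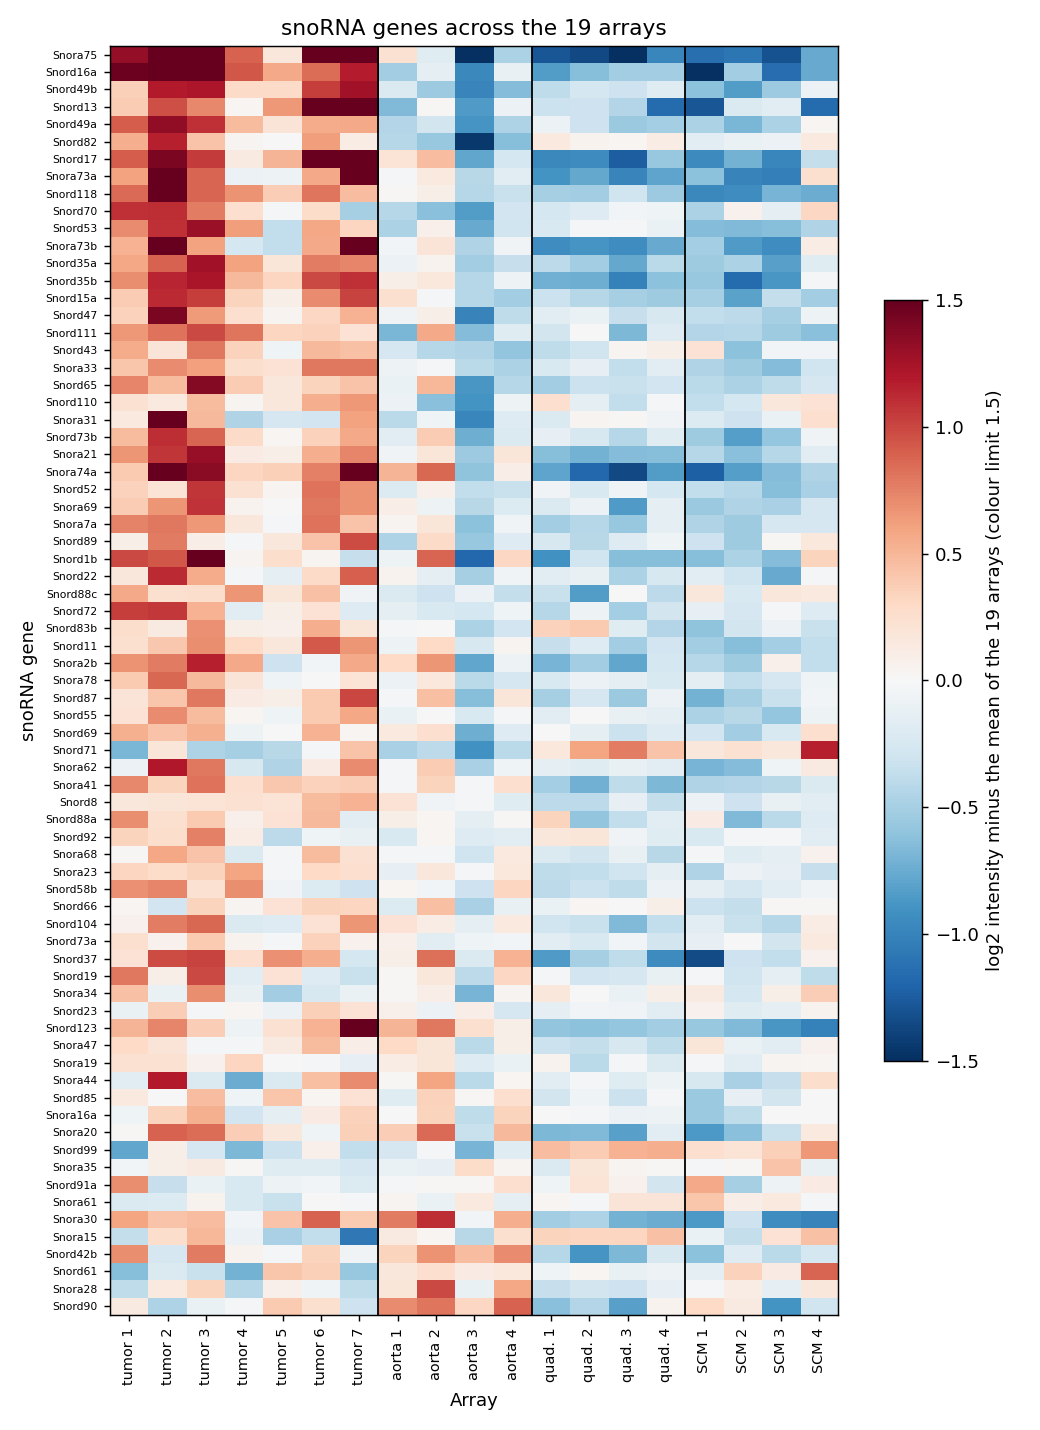
Log2 intensity of each of the 73 snoRNA genes (rows, ordered by tumor minus aorta) on each of the 19 arrays (columns), minus the gene's mean over the arrays, red above and blue below. Tumors 2 and 3 are red for most genes, tumors 4 and 5 paler, and aorta 3 is the bluest aorta, on the deposited scale.

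One aorta stood apart in the same way. The mean over the 73 genes was 6.43 in aorta 3 and 6.84, 7.03 and 6.82 in aortas 1, 2 and 4, while the mean of all genes on the 4 arrays was between 6.05 and 6.06. The tumors ran from 6.93 to 7.57, so aorta 2 lay above the lowest tumor. Without aorta 3, 26 of the 73 genes rose against aorta, all of them among the 35, with a median difference of 0.29. Aorta 3 also had the highest mean of neuron markers among the aortas (6.62) and the lowest of leukocyte markers (6.29). The part of such cells was not tested.

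The lower level in aorta 3 and the order of the tumors were partly seen in another small RNA class. For the 5 small Cajal body RNAs (scaRNAs), which guide modification of spliceosomal RNAs, aorta 3 was again the lowest at a mean of 7.16 beside 7.46 to 7.88, and tumor 5 the lowest tumor at 7.58. The scaRNAs were higher in tumors in 4 of 5 cases against aorta (median 0.50) and 3 of 5 against muscle (0.82), with none lower in either comparison, while under housekeeping centring 0 were higher and 1 lower against aorta and 1 was higher and 2 lower against muscle. The 483 microRNA genes, taken by symbol, were mostly precursors but held a few longer host genes, with symbols ending in hg. They were split between the directions on the deposited scale, with 38 higher and 43 lower against aorta (median -0.01). Against muscle 96 were higher and 72 lower (-0.01), whereas housekeeping centring gave 383 lower against aorta and 434 lower against muscle. For both classes the shares of all genes were 18.6% higher and 17.5% lower against aorta, and 25.3% and 25.7% against muscle. Housekeeping centring gave 5.22% and 77.9%, and 6.19% and 85%.

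**Figure D4:**
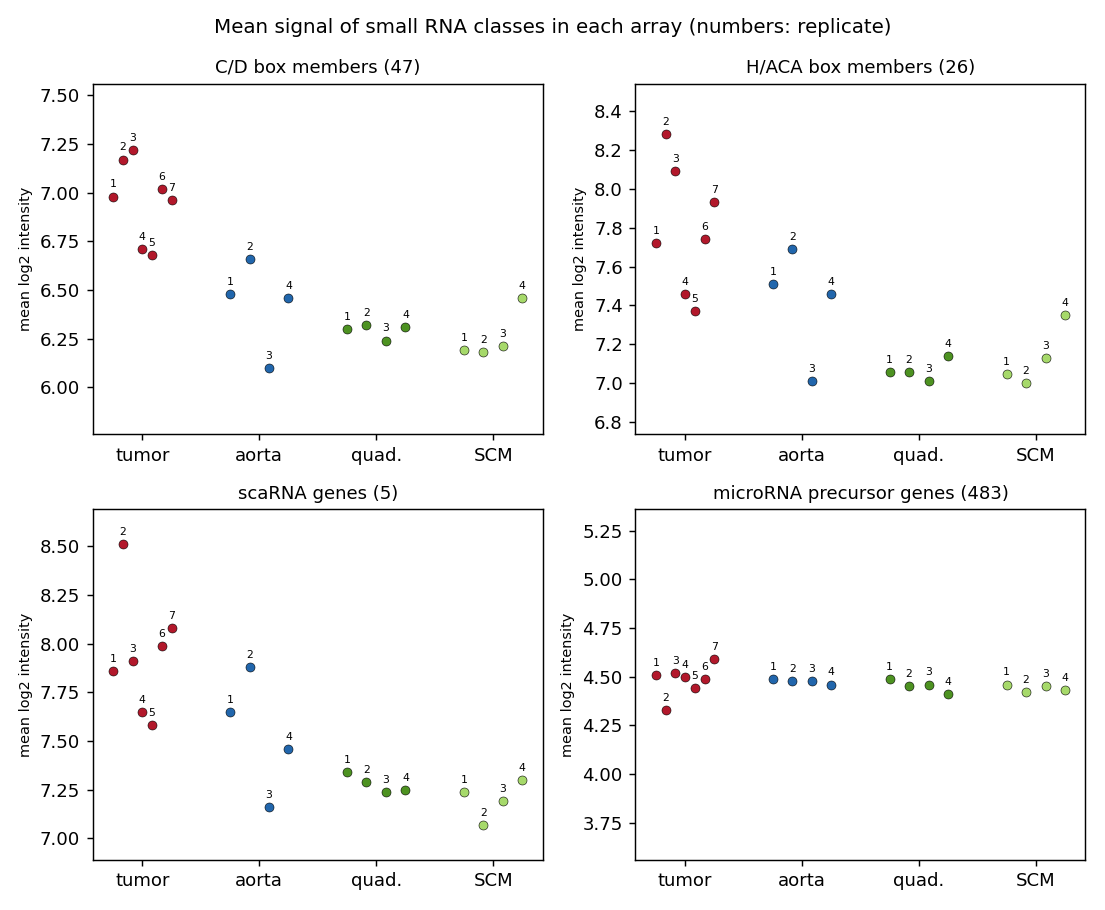
Mean log2 intensity (y axis, the same span in each panel) over C/D box snoRNA, H/ACA box snoRNA, scaRNA and microRNA genes (mostly precursors) in each array, numbered by replicate. Tumors 4 and 5 are the lowest tumors and aorta 3 the lowest aorta in the first 3 panels, and microRNA gene means lie between 4.33 and 4.59 on all 19 arrays.

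Host genes were compared with the snoRNAs they contain for the 60 pairs in which both were measured, over 46 hosts. Of the 46 hosts 23 rose and 1 fell against aorta (median 0.29), and 26 rose and 5 fell against muscle (0.28), while under housekeeping centring 2 rose and 26 fell and 2 rose and 38 fell. Beside this, 18.6% of all genes rose and 17.5% fell against aorta, and 25.3% and 25.7% against muscle. Under housekeeping centring 5.22% rose and 77.9% fell, and 6.19% and 85%. On the deposited scale both the snoRNA and its host rose against aorta in 23 of the 60 pairs, in 4 the snoRNA alone, in 8 the host alone, and in 22 neither passed. In the other 3 pairs Snora28 fell while its host did not pass, Snord90 fell while its host rose, and the gene taken as host of Snord91a fell alone. These counts depend on the centring, since only 5 of the 73 snoRNAs and 2 of the 46 hosts rose against aorta on the housekeeping genes. The snoRNA's difference minus its host's, taken within each array, does not depend on it, and its median was 0.02.

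The difference between snoRNA and host passed in 4 pairs, each with an adjusted p of 0.0455 over 60 pairs (exact permutation test over 7 tumors and 4 aortas, two-sided, whose smallest possible p is 0.00303). With any 1 tumor or aorta left out, 0 pairs passed, since fewer relabellings raise the smallest p the test can give. Unadjusted, 15 pairs were under 0.05. Snord16a rose 1.33 more than Rpl4, a ribosomal protein gene that itself differed by 0.29 (limma adjusted p = 0.00374) and by -0.33 under housekeeping centring. Snord91a differed by -0.11 from aorta while a gene containing it, Srr (serine racemase), fell by 1.52 (limma adjusted p = 7.9e-07), a pair difference of 1.40. Snord91a lay inside 2 genes, and Srr was taken because it was measured, so Srr need not be its host. Snord90 moved 1.18 below Rc3h2, which differed by 0.49, or -0.13 under housekeeping centring. Snord92 moved 0.51 below Wdr43, which differed by 0.78, or 0.15 under housekeeping centring. Snord90, Snord91a and Snord92 all had weak signals, at or under 5.01 in every tumor and aorta. Snora75 exceeded Ncl by 1.37 without passing (exact permutation adjusted p = 0.114).

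**Figure D5:**
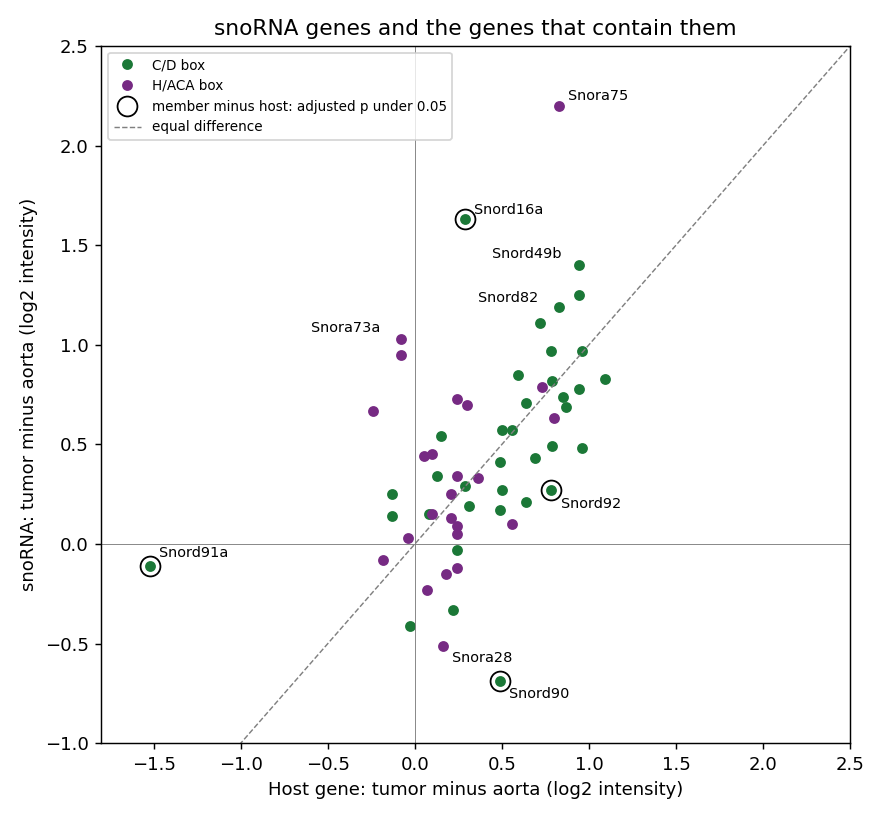
Tumor minus aorta difference in log2 intensity of 60 snoRNA genes (y axis) against that of the gene that contains each (x axis); the dashed line marks equal differences. Ringed points are the 4 pairs whose difference passed the exact permutation test, with Snord16a and Snord91a above the line and Snord90 and Snord92 below it; none of them passed with any 1 tumor or aorta left out.

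SnoRNAs of 1 host did not always move alike. Of 11 hosts with more than 1 measured snoRNA, 18 pairs gave 36 tests over both tumor comparisons, and 9 passed (exact permutation, adjusted over the 36). Only the Wdr43 pair passed against aorta, and the other passes were against muscle. The aorta tests had 330 relabellings and the muscle tests 6435, so the smallest possible p was larger against aorta. In Snhg12 the H/ACA box snoRNAs Snora16a and Snora44 differed by 0.26 and 0.30 from muscle while Snord99 fell by 0.74, and both differences passed (exact permutation adjusted p = 0.00186 each). Against aorta neither passed (exact permutation adjusted p = 0.735 and 0.766). In Wdr43 Snord53 differed by 0.97 from aorta and Snord92, whose signal was weak, by 0.27 (exact permutation adjusted p = 0.0273). In Kansl2, Snora2b differed by 0.92 from muscle and Snora34 by -0.05 (exact permutation adjusted p = 0.0028), while against aorta this pair did not pass (exact permutation adjusted p = 0.276).

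The proteins of the snoRNA complexes were mixed. Of the C/D box core, Nop56 and Nop58, which form its scaffold, rose against aorta by 0.85 and 0.96 (limma adjusted p = 7.26e-05 and 7.23e-05) and against muscle by 0.55 and 0.93. Under housekeeping centring these became 0.23 (limma adjusted p = 0.117) and 0.33 (limma adjusted p = 0.0269) against aorta and -0.42 and -0.04 against muscle. Snu13, which binds the RNA kink, differed by -0.03 from aorta (limma adjusted p = 0.85). Fibrillarin (Fbl) was not measured here. Of the 4 H/ACA core proteins, Gar1 rose by 0.64 against aorta (limma adjusted p = 0.00809; 0.02 under housekeeping centring) and Nop10 fell by 0.84 (limma adjusted p = 2.54e-06). Dyskerin (Dkc1), the enzyme, differed by -0.22 (limma adjusted p = 0.495), and Nhp2 by 0.29 (limma adjusted p = 0.204). Of 12 measured assembly and transport factors, 4 rose and 1 fell against aorta, and 1 rose and 6 fell against muscle, where housekeeping centring gave 0 and 8, and 0 and 12. Of all genes 18.6% rose and 17.5% fell against aorta, and 25.3% and 25.7% against muscle. Housekeeping centring made these 5.22% and 77.9%, and 6.19% and 85%.

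The counts in this paragraph are to be read beside the shares of all genes. On the deposited scale 18.6% rose and 17.5% fell against aorta, and 25.3% and 25.7% against muscle. Housekeeping centring gave 5.22% and 77.9%, and 6.19% and 85%. Of 33 measured ribosome biogenesis genes, a list that includes Myc, 11 rose and 3 fell against aorta (median 0.23). Against muscle 6 rose and 12 fell (0.01), while housekeeping centring gave 1 and 21 against aorta, and 0 and 30 against muscle. Myc, the transcription factor that drives many of the others, rose by 2.04 against aorta (limma adjusted p = 3.21e-05) and 1.47 against muscle (limma adjusted p = 6.31e-05). The tumors were at 7.49 to 9.53 and the aortas at 6.84, 6.62, 6.34 and 6.49. Under housekeeping centring Myc was the 1 gene of the list that rose against aorta (1.41, limma adjusted p = 0.000204). Its difference from muscle did not pass there (0.50, limma adjusted p = 0.0537). Of 14 genes of RNA polymerase I and its factors, which transcribe the rRNA precursor, 2 rose and 2 fell against aorta and 3 rose and 4 fell against muscle, while housekeeping centring gave 0 and 10, and 1 and 13. Of 15 measured long noncoding snoRNA hosts, 5 rose and 1 fell against aorta and 9 rose and 2 fell against muscle, while housekeeping centring gave 0 and 10, and 1 and 12. On the deposited scale Snhg17 differed by 1.0 from aorta and 1.62 from muscle, Snhg15 by 0.78 and 1.04, and Snhg14 by -0.71 and -1.56.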

How the data were processed

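The authors deposited a table of log2 intensity values for 41345 probe sets on 19 arrays. The miRNeasy kit used for extraction keeps small RNAs, and biotinylated cRNA was hybridised, per the labels. The submitters' processing notes name Partek 6.6, and how the values were normalized is not given in the sources used here. They were tested as deposited, and other scalings, filters, variance models and sample sets were tried as alternatives.

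Of the probe sets 23521 had 1 symbol, 1814 several and 16010 none, and the brightest per gene left 22180 genes. The fit, in limma 3.58.1 under R 4.3.3, used lmFit and eBayes with 1 mean for each of the 4 groups. P-values were adjusted over all genes by the Benjamini-Hochberg method, with a threshold of 0.05. Python 3.11.15, pandas 2.3.3 and scipy 1.17.1 gave exact permutation tests for host pairs. On simulated data for tumor minus aorta, over 22180 genes, the fit recovered 60% of log2 changes of 0.5 and 92% of changes of 1. For sternocleidomastoid minus quadriceps it recovered 32% and 94%. The simulation gave each gene 1 spread in all groups, whereas snoRNA genes spread more among the tumors than the typical gene. Recovery for the snoRNA genes alone was not measured. The number of arrays limits the precision.

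Hosts were to be matched by strand, but the gene table used gave none for the snoRNAs, so containment was used. Named genes were those called with the largest differences (8 each way per tumor comparison, 5 each way for aorta against muscle, 10 each way that passed both tumor comparisons, and the 2 largest where none passed) and their hosts, with lists of snoRNA proteins. Snord65, Snord91a, Snord92, Snora16a, Snora44, Snora2b and Snora34 were added for their host results after their values were seen, as were the tests between snoRNAs of 1 host, Rnu3a's values and CTTTC. Members and lists were chosen with earlier results of these data known.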

Additional observations from a re-analysis of the deposited data

Results flagged for a closer look

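Of 92 sample groups tested over the 23 named snoRNA genes, 6 held 1 array whose gap to the nearest other was a large share of the group's range (Dixon's test), and chance alone flags about 1 in 20 groups. Snord118 in tumor 2 was at 7.18, with the next tumor at 6.24. Snord118 in quadriceps femoris 3 was at 5.06, with the next at 4.86. Snord13 in quadriceps femoris 4 was at 4.83, with the nearest other at 5.54. In sternocleidomastoid 4, Snord53 was at 7.26 and Snord71 at 9.87, with the next arrays at 7.08 and 8.94. Snord88c in sternocleidomastoid 2 was at 6.31, with the nearest other at 6.68.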

How the results depend on the processing

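No paired analysis was possible because the labels give no replicate numbers that link samples across groups. The counts of snoRNA genes higher and lower were 35 and 2 in tumor minus aorta, 54 and 3 in tumor minus muscle and 13 and 3 in aorta minus muscle. Centring on the housekeeping genes turned them to 5 and 26, 6 and 39, and 6 and 17, by lowering the median of all genes. Asking for at least a 2-fold difference left 8 and 0, 18 and 0, and 5 and 1. An adjusted p under 0.01 left 0 lower against aorta and 7 higher in aorta minus muscle. The count lower against aorta became 1 with dim genes left out, with the compared groups only and with tumors 4 and 5 left out, and 0 with tumors 1, 2, 4 and 7 left out. Tumors 5 to 7 only gave 21 higher against aorta, and centring on the median gene gave 5 lower against muscle. For sternocleidomastoid minus quadriceps, the compared groups only gave 1 lower, beside 0. The settings that leave out tumors 4 and 5 or tumors 1, 2, 4 and 7 were chosen after seeing the data, and the cause of the changes other than those from stricter thresholds was not tested. Leaving out 1 array at a time gave 26 to 39 higher and 0 to 3 lower against aorta, 51 to 57 and 3 to 4 against muscle, and 7 to 19 and 3 to 4 in aorta minus muscle. The 4 host pairs became 0 in each case, since fewer relabellings raise the smallest p the test can give. Named snoRNA genes gave 1293 values under alternatives, counted only over the 39 comparisons for which a gene was named. Of these values, 1225 kept direction and side of the threshold, 66 were no longer called, 1 was newly called and 1 turned sign. The value that turned sign was Snord53 in tumor minus muscle, at -0.01 under housekeeping centring. Other comparisons of the named genes were not counted. Among them, Snord82 in tumor minus muscle went from 0.40 to -0.57 under housekeeping centring (limma adjusted p = 0.00228). Weak signals limit the 19 genes below the median gene in every group.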
